A study of Mus musculus with 12 samples.

Results

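The genes described here are 10 mouse acetylcholine receptor genes, *Chrna3*, *Chrna4*, *Chrna5*, *Chrna7*, *Chrnb1*, *Chrnb2*, *Chrnb4*, *Chrm2*, *Chrm3* and *Chrm4*, out of 45777 genes in the tables. They were chosen by name from a list of neuronal acetylcholine receptor subunits and matched to the tables by NCBI Gene ID, and all 10 were found. The list is broader than its name. Of the genes, 6 encode subunits of neuronal nicotinic receptors, but *Chrnb1* encodes the beta subunit of the muscle-type nicotinic receptor, and *Chrm2*, *Chrm3* and *Chrm4* encode muscarinic receptors, which are single proteins and not subunits.

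Nicotinic receptors are pentameric ion channels that open when acetylcholine binds, and the alpha and beta subunits that a neuron makes set which channels it can build. The alpha4 and beta2 subunits form the common high-affinity receptor of the central nervous system, alpha7 can form a channel by itself, and alpha3 with beta4 is the typical receptor of autonomic ganglia, to which alpha5 can be added as an accessory subunit. Muscarinic receptors act through G proteins, with M2 and M4 coupled to Gi/o and M3 to Gq/11. Motor neurons are the main cholinergic neurons of the ventral spinal cord, and acetylcholine released from their axon collaterals reaches nicotinic receptors on Renshaw cells.

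The 12 libraries came from ventral spinal cord of mouse embryos at E12.5, with 3 libraries in each of 4 groups. These were brachial *Isl2* +/- (heterozygote, Het), brachial *Isl2* -/- (KO), lumbar *Isl2* +/- and lumbar *Isl2* -/- tissue. Isl2 is a LIM-homeodomain transcription factor of postmitotic motor neurons. The KO is a germline allele in which exons were replaced by a neomycin cassette, so the deletion was present in every cell of the embryo, the controls carried 1 copy of the same allele, and there was no wild-type group. All tissue was trimmed around an *Hb9::GFP* reporter, which marks motor neurons, without sorting of cells. In such bulk tissue, fewer cells of a type and less RNA per cell cannot be told apart.

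Levels are given as TPM, in which transcripts are scaled to gene length and to a fixed total per library, rescaled here so that the typical gene had the same level in every library. The libraries held 4.485 to 6.638 Gb of aligned bases, with the least in brachial KO replicate 3, and 22983 to 24191 genes had values above 0. Motor neuron markers were present, with a summed level of 10 genes of 270 to 659 TPM, whereas 12 skeletal muscle genes summed to 1.08 to 2.33 TPM, with *Myod1* and *Ckm* listed at 0 in all 12 libraries. *Isl2* itself was at 8.73, 8.33 and 9.72 TPM in brachial Het and 6.04, 7.28 and 4.47 TPM in brachial KO libraries. In lumbar Het libraries it was at 10.3, 8.43 and 9.43 TPM, and in lumbar KO libraries at 7.33, 6.53 and 8.24 TPM. KO libraries were therefore below Het libraries at both levels without overlap, with transcript still read from the gene. Groups did not overlap, in either direction, for 20.0% of genes tested in brachial and 9.93% in lumbar cord. The size of this drop depended on the column read. In TPM the log2 difference was -0.61 in brachial and -0.35 in lumbar cord, and with mean read coverage in place of TPM, fitted without a filter, it was -0.84 (95% interval -1.56 to -0.13) and -0.72 (-1.29 to -0.16), again without overlap. The adjusted p-values with coverage were 0.524 and 0.921 in limma. The lumbar TPM value fell short of the log2 difference of 0.5 required below for genotype calls. By *Xist* and *Ddx3y*, same-numbered brachial and lumbar libraries were of the same sex in only 3 of 6 pairs, so replicate numbers cannot pair them. Brachial and lumbar libraries of a genotype may still share embryos, though not all of them in Het, where 2 of 3 brachial and 1 of 3 lumbar libraries were male. The fits, SDs and permutation tests over both levels treat all 12 libraries as separate.

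The nicotinic genes include a cluster that lies close to *Isl2*. *Chrna5* (chr9:54980827-55007783, plus strand), *Chrna3* (chr9:55010117-55026562, minus strand) and *Chrnb4* (chr9:55028154-55048953, minus strand) span 68 kb in mm10, and *Isl2* (chr9:55538677-55547667, plus strand) begins 490 kb beyond the end of *Chrnb4*. In RefSeq, *Chrna5* extends to 55011420 and so runs into the end of *Chrna3* on the opposite strand, whereas in the tables both genes stop short of each other. The other members lie apart, *Chrna4* at chr2:181022311-181043579, *Chrna7* at chr7:63098692-63212526, *Chrnb1* at chr11:69784036-69795966 and *Chrnb2* at chr3:89753448-89764632, all on the minus strand. *Chrm2* lies at chr6:36387991-36528638 on the plus strand, *Chrm3* at chr13:9875486-10361062 on the minus strand and *Chrm4* at chr2:91922189-91929835 on the plus strand.

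Sequence before the transcription start is shown for *Chrna7*, the nicotinic member with the largest difference between cord levels, *Chrna3*, the cluster gene of highest length-corrected coverage, and *Chrnb2*, the member of highest level. Each window holds the 250 bases before the RefSeq start in GRCm38.p6, written 5′ to 3′ on the gene's strand (minus for all of these), from chr7:63212527-63212776, chr9:55026563-55026812 and chr3:89764633-89764882, respectively. Capitals mark GGGCGG, the core of the GC box bound by Sp1 family factors, on either strand.
Chrna7: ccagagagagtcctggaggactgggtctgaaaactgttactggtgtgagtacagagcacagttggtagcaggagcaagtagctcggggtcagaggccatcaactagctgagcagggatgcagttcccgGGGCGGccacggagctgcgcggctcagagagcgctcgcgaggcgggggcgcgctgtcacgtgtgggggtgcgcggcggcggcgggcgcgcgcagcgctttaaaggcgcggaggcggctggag
Chrna3: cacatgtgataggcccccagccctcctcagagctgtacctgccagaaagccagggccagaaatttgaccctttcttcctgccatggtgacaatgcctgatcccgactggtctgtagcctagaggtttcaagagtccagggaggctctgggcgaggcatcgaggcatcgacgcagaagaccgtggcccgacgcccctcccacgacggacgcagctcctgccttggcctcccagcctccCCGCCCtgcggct
Chrnb2: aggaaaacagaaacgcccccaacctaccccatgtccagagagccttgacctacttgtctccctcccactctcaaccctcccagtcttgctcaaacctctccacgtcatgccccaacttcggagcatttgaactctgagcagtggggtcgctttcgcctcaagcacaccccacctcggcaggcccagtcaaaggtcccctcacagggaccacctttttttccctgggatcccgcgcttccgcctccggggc
All 10 members had such a window, 11 in all because *Chrna5* has 2 starts. GGGCGG was found in 7 of the 11 windows, including those of *Chrna4*, *Chrm2* and *Chrm4*, against 32.7% of 32851 promoter windows of this length. The homeodomain core TAATTA was found in 1 of the 11 windows, that of *Chrnb1*, against 4.84% of all windows, and the Hox-Pbx type motif TGATNNAT in the same window, against 7.68%. No motif overlapped another in the windows printed here. These matches describe letters in the windows and not binding.

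Beta2 was the leading transcript among the 10 acetylcholine receptor genes in the ventral cord. *Chrnb2* had a median of 56.7 TPM over the 12 libraries and ranged only from 50.5 to 62.6 TPM. *Chrna4*, which encodes its usual partner, followed with a median of 22.9 TPM and a range of 18.2 to 32.6 TPM. *Chrnb2* was above every other member in every library, and together both genes held 59.8% to 65.9% of the summed TPM of the 10 members, or 66.4% to 75.8% with mean read coverage in place of TPM. The sum itself was 117 to 146 TPM.

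Next came *Chrna7* with a median of 16.4 TPM (10.5 to 24.5), *Chrna5* with 11.5 TPM (9.17 to 17.6) and *Chrna3* with 8.68 TPM (7.20 to 11.2). Their ranges overlapped, but *Chrna7* was above *Chrna5* and *Chrna5* above *Chrna3* within each of the 12 libraries. The M2 gene *Chrm2* followed with a median of 6.03 TPM and the M3 gene *Chrm3* with 2.68 TPM. *Chrm2* was above *Chrm3* in 11 of 12 libraries, and was below *Chrna3* in 8 of 12.

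The remaining members were barely detected. *Chrm4* had a median of 0.331 TPM, *Chrnb1* of 0.281 TPM and *Chrnb4* of 0.258 TPM, and their ranges overlapped one another. The mean read coverage per base of *Chrnb4* was 0.302 to 2.22 and that of *Chrnb1* 0.420 to 1.22, against 125 to 184 for *Chrnb2*. That of *Chrm2*, in spite of its higher TPM, was 0.258 to 1.10. The alpha3 gene exceeded the gene of its beta4 partner 14.7- to 99.6-fold per length.

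**Figure D1:**
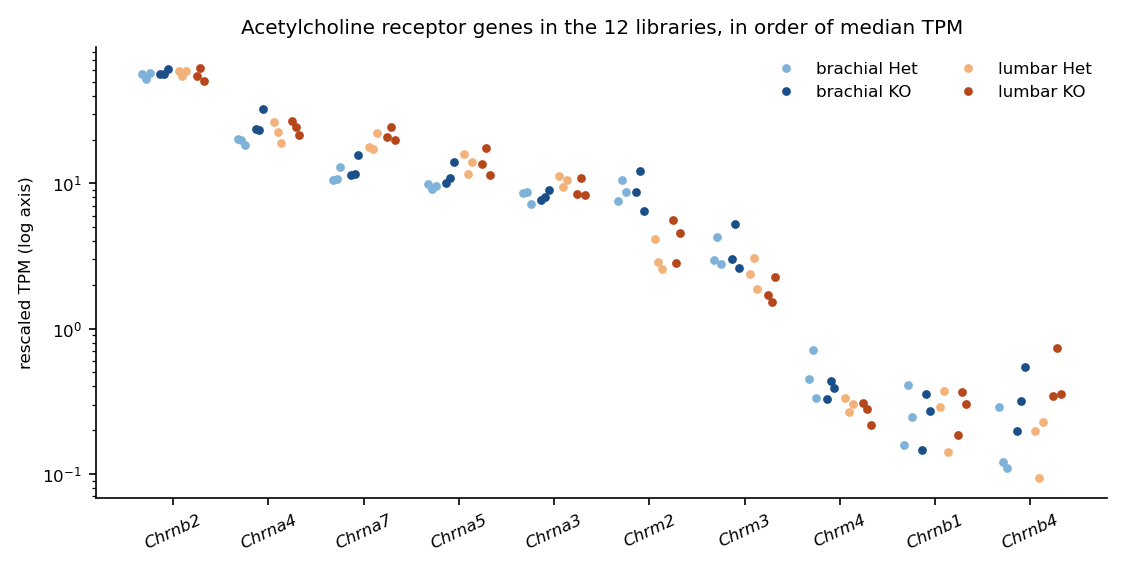
Rescaled TPM (log axis) of the 10 receptor genes, ordered by median, with 1 point for each library and colours for the 4 groups. *Chrnb2* lies between 50.5 and 62.6 TPM in all 12 libraries, *Chrm2* has lower points in the lumbar than in the brachial groups, and *Chrm4*, *Chrnb1* and *Chrnb4* all lie at 0.732 TPM or below.

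This order depends on the column of the tables that is read. The tables also give a gene's mean coverage, and for single-transcript genes such as *Chrna3* and *Chrna7* both columns gave the same level. For members with several RefSeq transcripts they did not. Coverage converted to the TPM scale was 0.142 to 0.150 of the TPM for *Chrna5* and 0.0284 to 0.0356 of it for *Chrm2*, and 0.363 to 0.464 of it for *Chrm4*. By coverage, *Chrna5* had a median of 1.71 and ranked sixth, and *Chrm2* had a median of 0.198 and ranked ninth, while *Chrm4* went from the eighth to the last place. The ranks of *Chrnb2*, *Chrna4* and *Chrna7* were the same in both columns. Levels of *Chrna5*, *Chrm2* and *Chrm4* relative to other genes are therefore uncertain, and their differences between libraries were also computed from coverage.

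The comparison of lumbar with brachial cord asks how receptor transcripts vary along the cord. From brachial to lumbar cord 2 nicotinic genes rose and 2 muscarinic genes fell. In the fit over all 12 libraries, 4 of the 7 members that passed the filter (mean of at least 0.5 TPM) differed between levels at an adjusted p under 0.05, against 18.5% of the 16736 genes tested. *Chrna7* and *Chrna5* were higher in lumbar cord, as were 8.88% of genes tested, and *Chrm2* and *Chrm3* were lower, as were 9.65%. The median difference of the 7 members was 0.051 on the log2 scale and that of all genes tested 0.012. The adjusted p-values are from limma with Benjamini-Hochberg adjustment over all genes tested, and log2 differences are on the scale of log2(TPM + 0.1).

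*Chrna7*, which encodes the homomeric, calcium-permeable alpha7 receptor, was at 10.5, 10.7 and 12.9 TPM in brachial Het and 11.4, 11.5 and 15.6 TPM in brachial KO libraries. Lumbar Het libraries had 17.8, 17.3 and 22.3 TPM, and lumbar KO libraries 20.8, 24.5 and 19.9 TPM. Every lumbar library was above every brachial library, and the gap held within each genotype. The log2 difference was 0.75 (95% interval 0.54 to 0.97, adjusted p 0.000559), a 1.68-fold higher level. It stayed between 0.61 and 0.82 under all 25 alternative settings, and missed the adjusted threshold in 1 of them, the KO libraries alone (0.76, adjusted p 0.0514). Groups that do not overlap in this comparison were seen for 8.32% of genes tested.

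*Chrm2* encodes the Gi/o-coupled M2 receptor, which motor neurons carry at their C-bouton synapses. It was at 7.60, 10.6 and 8.77 TPM in brachial Het and 8.74, 12.2 and 6.42 TPM in brachial KO libraries. Lumbar Het libraries had 4.15, 2.87 and 2.56 TPM and lumbar KO libraries 5.63, 2.82 and 4.56 TPM. All lumbar libraries were below all brachial libraries. *Chrm2* fell by 1.27 on the log2 scale (95% interval -1.71 to -0.84, adjusted p 0.00154), to 0.414 of the brachial level. With coverage in place of TPM, where its level is much lower, the difference was -1.06 with an adjusted p of 0.00381. In KO libraries alone it was -1.06 and missed the threshold (adjusted p 0.0946). As its mean coverage was at most 1.10 reads per base, these values too rest on few reads.

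*Chrna5*, the accessory subunit gene, was at 9.87, 9.17 and 9.62 TPM in brachial Het and 10.0, 10.8 and 14.0 TPM in brachial KO libraries. Lumbar libraries had 15.9, 11.6 and 13.9 TPM for Het and 13.6, 17.6 and 11.4 TPM for KO. Het libraries were separate between levels and KO libraries overlapped. The log2 difference was 0.40 (95% interval 0.14 to 0.66, adjusted p 0.0359). This call was fragile, with the adjusted p between 0.0118 and 0.0848 when 1 library was left out. It was lost without any one of brachial Het 1, 2 or 3, brachial KO 1 or 2, lumbar Het 1 or 3, or lumbar KO 2. It was also lost with coverage in place of TPM (0.39, adjusted p 0.0593), with TPM as deposited (0.26, 0.222), without a filter (0.40, 0.0693), with eBayes without trend (0.40, 0.0508), with the replicate block (0.40, 0.0676), in Het libraries alone (0.51, 0.0653) and in KO libraries alone (0.28, 0.407).

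*Chrm3*, the gene of the Gq/11-coupled M3 receptor, was at 2.95, 4.29 and 2.77 TPM in brachial Het and 3.03, 5.26 and 2.60 TPM in brachial KO libraries. Lumbar values were 2.36, 3.06 and 1.87 TPM for Het and 1.69, 1.52 and 2.26 TPM for KO. The levels overlapped in Het and not in KO libraries. *Chrm3* fell by 0.68 on the log2 scale (95% interval -1.11 to -0.24, adjusted p 0.0355). Without any one of brachial Het 2, brachial KO 1 or 2, lumbar Het 3, or lumbar KO 1 or 2 the call was lost, with the adjusted p between 0.0242 and 0.0874 over all libraries left out in turn. It was also lost without a filter (adjusted p 0.0723), with the replicate block (0.0536), in Het libraries alone (-0.44, 0.349) and in KO libraries alone (-0.91, 0.122).

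No other member tested passed the threshold. *Chrnb2* had means of 56.9 ± 3.01 TPM in brachial and 56.8 ± 4.41 TPM in lumbar libraries (SD, n = 6 each), with a log2 difference of -0.0021 and a 95% interval of -0.13 to 0.13. *Chrna4* was at 22.9 ± 5.18 and 23.5 ± 3.04 TPM, with a difference of 0.051 and an interval of -0.19 to 0.29. *Chrna3* was at 8.20 ± 0.672 and 9.79 ± 1.23 TPM, and its difference of 0.25 (interval 0.053 to 0.44) had an adjusted p of 0.0748. It passed, at 0.048, when brachial KO replicate 3 was left out.

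**Figure D2:**
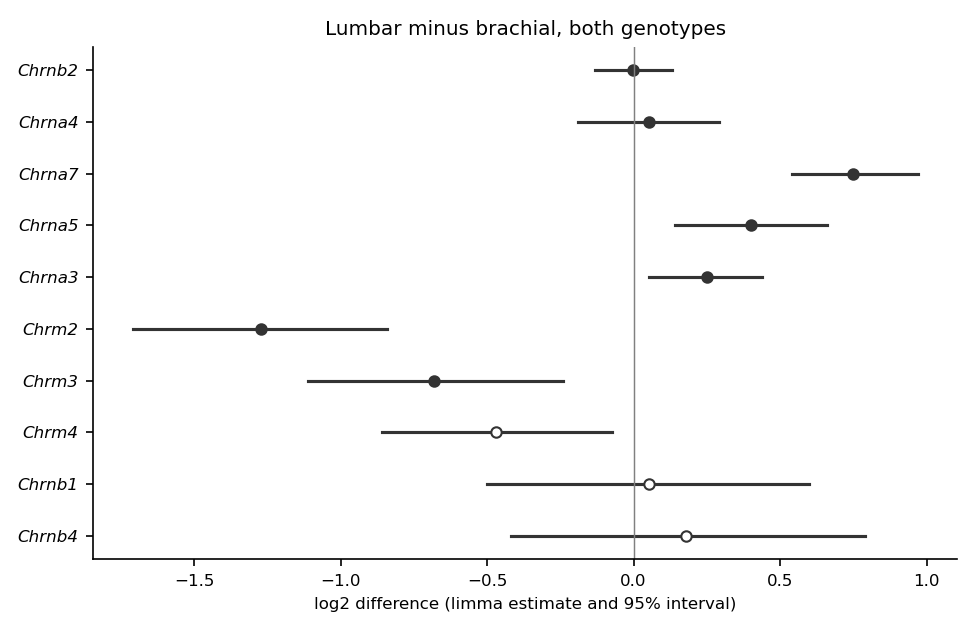
Difference between lumbar and brachial libraries (log2, both genotypes) for each receptor gene, as the limma estimate with its 95% interval. Filled points mark genes in the filtered fit, and open points *Chrm4*, *Chrnb1* and *Chrnb4*, which were too low for the filter and come from a fit without it. *Chrna7* lies at 0.75 and *Chrm2* at -1.27, with *Chrnb2* at zero.

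Members under the filter were fitted without it, where 8.81% of 30567 genes passed. *Chrm4* was at 0.442 ± 0.141 TPM in brachial and 0.284 ± 0.0396 TPM in lumbar libraries, with a log2 difference of -0.47 (adjusted p 0.148 in limma). The point estimates of all 3 muscarinic members were thus lower in lumbar cord. This was not so for *Chrm5*, outside the list, with means of 0.303 TPM in brachial and 0.387 TPM in lumbar libraries. Summed over the 3 members, muscarinic TPM was 9.41 to 17.9 in brachial and 4.61 to 7.63 in lumbar libraries, that is 6.58% to 13.9% and 3.17% to 5.90% of all member transcripts per length. By coverage these shares were 2.24% to 5.05% and 1.20% to 2.77%, overlapping between levels, and *Chrm3* made up 81.7% to 92.2% of the muscarinic sum. The ratio of *Chrna7* to *Chrm2* ran from 0.948 to 2.43 in brachial and from 3.69 to 8.72 in lumbar libraries by TPM. By coverage it was at most 70.6 in brachial and at least 118 in lumbar libraries, with medians of 42.8 and 160.

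Some cell type markers differed between the levels too, where 8.88% of all genes tested were higher and 9.65% lower in lumbar cord. The summed motor neuron markers were 580 to 659 TPM in brachial and 270 to 465 TPM in lumbar libraries, with none of the 10 at 0. Of these 10 genes, 3 were lower in lumbar cord, the intermediate filament gene *Prph* by -2.62, the choline transporter gene *Slc5a7* by -1.10 and the retinoic acid synthesis gene *Aldh1a2* by -0.49 on the log2 scale, and none was higher. The mean of *Prph* alone was 285 TPM in brachial and 48.6 TPM in lumbar libraries, so that the sum followed mainly this gene. *Mnx1*, *Isl1*, *Chat*, *Lhx3* and *Ret* did not pass, with differences of 0.25, 0.092, 0.16, 0.45 and 0.36. Nor did *Foxp1* (-0.092) or *Slc18a3* (-0.094). Of 10 ventral progenitor markers, 6 were higher and 2 lower, and of 10 pan-neuronal markers, 3 were lower. The part of these differences in the receptor values was not tested.

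The comparison of KO with Het asks whether receptor genes depend on *Isl2*. At the brachial level, none of the 7 members tested was called at a log2 difference beyond 0.5 in either direction with an unadjusted p under 0.05, against 3.10% of 16935 genes. The study's own use of this threshold is stated for lower genes. The median difference of the 7 members was 0.077 and that of all genes -0.011. Groups did not overlap for 2 of the 7 members, *Chrna4* and *Chrna5*, against 20.0% of genes tested.

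*Chrna4* came closest. It was at 20.1, 19.9 and 18.2 TPM in brachial Het and at 23.7, 23.1 and 32.6 TPM in brachial KO libraries. Each KO library was above each Het library, and KO replicate 3 was far above the rest. The log2 difference was 0.43 (SE 0.14, 95% interval 0.10 to 0.75, unadjusted p 0.016 and adjusted p 0.359 in limma), or 1.34-fold. An exact permutation test gave p = 0.1, the smallest that 3 against 3 libraries allow. Without KO replicate 3 the difference was 0.27, and without KO replicate 2 it was 0.52 and passed the threshold. It also passed with TPM as deposited, at 0.60, where the median of all genes moved to 0.16.

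Brachial *Chrna5* differed by 0.26 (95% interval -0.057 to 0.58) and *Chrna7* by 0.17 (interval -0.18 to 0.51). Without KO replicate 3 these were 0.12 and 0.019. *Chrnb2*, *Chrna3*, *Chrm2* and *Chrm3* had differences of 0.063, 0.0071, -0.017 and 0.077. The interval of *Chrnb2*, -0.11 to 0.24, was the narrowest, and that of *Chrm3*, -0.60 to 0.75, the widest.

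Brachial KO replicate 3 stood apart among the brachial libraries. It was the highest of 6 for 6 of the 7 nicotinic members, all but *Chrnb1*, and the lowest for *Chrm2* and *Chrm3*. It also had the least aligned sequence, the highest summed blood markers, 7100 TPM against 2500 to 4210 TPM in the other brachial libraries, and the lowest summed Schwann cell and crest markers, 1440 TPM against 1940 to 2340 TPM. Its ventral progenitor sum (2460 TPM) and endothelial sum (61.5 TPM) were the lowest of the brachial libraries as well, and it was the only female of the brachial KO libraries. Summed pan-neuronal markers were 4960 to 5330 TPM in brachial KO and 5570 to 6260 TPM in brachial Het libraries, without overlap. The abundant genes *Tubb3*, *Nefl* and *Gap43*, with *Snap25*, had lower estimates in KO. *Elavl3*, *Elavl4*, *Stmn2*, *Syt1*, *Nefm* and *Rbfox3* had higher ones, and none was called. The summed motor neuron markers were also lower in brachial KO (580 to 608 TPM) than in brachial Het libraries (641 to 659 TPM), whereas the sum of the 10 members was higher (122 to 143 against 117 to 118 TPM), neither with overlap. Of the motor neuron markers, *Prph* (mean 310 TPM in Het and 260 TPM in KO), *Isl1*, *Aldh1a2* and *Chat* had lower estimates in KO. *Mnx1*, *Lhx3*, *Foxp1*, *Slc18a3*, *Slc5a7* and *Ret* had higher ones, and none was called. The part of these features in the receptor values was not tested.

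At the lumbar level, none of the 7 members was called, against 1.77% of 16511 genes. The median difference was 0.029 for the members and -0.0087 for all genes, and all 7 members overlapped between genotypes, where 9.93% of genes tested did not. *Chrna3* was at 11.2, 9.38 and 10.5 TPM in lumbar Het and 8.47, 10.8 and 8.35 TPM in lumbar KO libraries, a difference of -0.18 (95% interval -0.49 to 0.13). *Chrna7* differed by 0.18 (interval -0.11 to 0.48), *Chrna4* by 0.11 (-0.20 to 0.43), *Chrna5* by 0.029 (-0.38 to 0.43) and *Chrnb2* by -0.052 (-0.27 to 0.16). With 1 library left out, *Chrna3* ran from -0.30 to -0.11 and *Chrna7* from 0.095 to 0.30.

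The muscarinic genes had the largest lumbar estimates and the widest intervals among the tested members. *Chrm2* differed by 0.41 (95% interval -0.24 to 1.06) and *Chrm3* by -0.39 (-0.95 to 0.18), in opposite directions. *Chrm2* passed the threshold without lumbar KO replicate 2 (0.68), and was at 0.19 without lumbar KO replicate 1, 0.27 without lumbar Het replicate 3 and 0.21 with coverage in place of TPM. *Chrm3* passed with embryo sex as a term (-0.53), an alternative added after the data had been seen, and ran from -0.55 to -0.21 with 1 library left out.

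**Figure D3:**
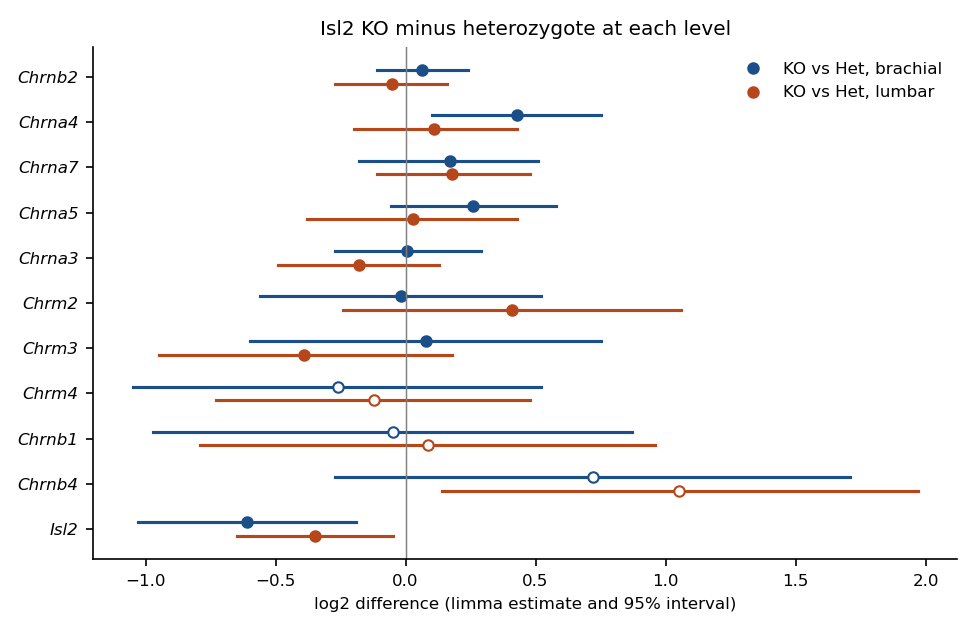
Difference between *Isl2* KO and Het libraries (log2) at the brachial and lumbar levels for the 10 receptor genes and *Isl2*, as the limma estimate with its 95% interval. Filled points come from the filtered fit and open points from the fit without a filter. *Isl2* lies at -0.61 and -0.35, brachial *Chrna4* at 0.43, and *Chrnb4* at 0.72 and 1.05.

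Over both levels, none of the 7 members was called, against 1.82% of 16736 genes. *Chrna4* had a difference of 0.27 (95% interval 0.031 to 0.51, adjusted p 0.331), with Het libraries at 18.2 to 26.3 TPM and KO libraries at 21.6 to 32.6 TPM. *Chrna7* had 0.18 (-0.041 to 0.39), *Chrm2* 0.19 (-0.24 to 0.63), *Chrna5* 0.15 (-0.11 to 0.40), *Chrm3* -0.16 (-0.59 to 0.28), *Chrna3* -0.086 (-0.28 to 0.11) and *Chrnb2* 0.0054 (-0.12 to 0.13). With 1 library left out, *Chrna4* ran from 0.18 to 0.34, *Chrna7* from 0.11 to 0.23 and *Chrm2* from 0.077 to 0.32. Likewise *Chrna5* ran from 0.069 to 0.22, *Chrm3* from -0.31 to -0.052 and *Chrna3* from -0.14 to -0.047. The KO effect itself differed between levels for none of the 7, and for 0 of the 16736 genes tested in limma (percent called 0), with 740 of them at an unadjusted p under 0.05. The widest of the members' intervals for this difference were those of *Chrm2*, -0.45 to 1.30, and *Chrm3*, -1.34 to 0.41.

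*Chrnb4*, the beta4 gene of the cluster nearest to *Isl2*, had too low a mean for these fits. It was at 0.290, 0.120 and 0.110 TPM in brachial Het and 0.199, 0.320 and 0.548 TPM in brachial KO libraries. In lumbar libraries it was at 0.197, 0.0943 and 0.226 TPM for Het and 0.342, 0.732 and 0.357 TPM for KO. KO libraries were above Het libraries without overlap at the lumbar level, where 8.15% of genes did not overlap in either direction without a filter, and overlapped with them at the brachial level. The KO mean over both levels was 0.416 TPM and the Het mean 0.173 TPM, 2.41-fold apart.

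Fitted without a filter, *Chrnb4* differed by 1.05 at the lumbar level (unadjusted p 0.03, adjusted p 0.924 in limma), where 2.18% of 28494 genes passed the same threshold. At the brachial level the difference was 0.72 (adjusted p 0.553), where 2.80% of 28489 genes passed. Over both levels it was 0.89 (adjusted p 0.437), where 2.16% of 30567 genes passed. An exact permutation test of genotypes within each level, chosen after the values had been seen, gave a two-sided p of 0.01. With 1 library left out the p was 0.01 to 0.02 and the ratio 2.04 to 2.78. As the mean coverage of the gene was at most 2.22 reads per base, each value rests on few reads, and the counting error of a single library is unknown.

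*Chrnb1* and *Chrm4*, the other members of low level, showed no such separation. *Chrnb1* was at 0.271 ± 0.110 TPM in Het and 0.271 ± 0.0891 TPM in KO libraries, and *Chrm4* at 0.400 ± 0.165 and 0.327 ± 0.0779 TPM (SD, n = 6 each).

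**Figure D4:**
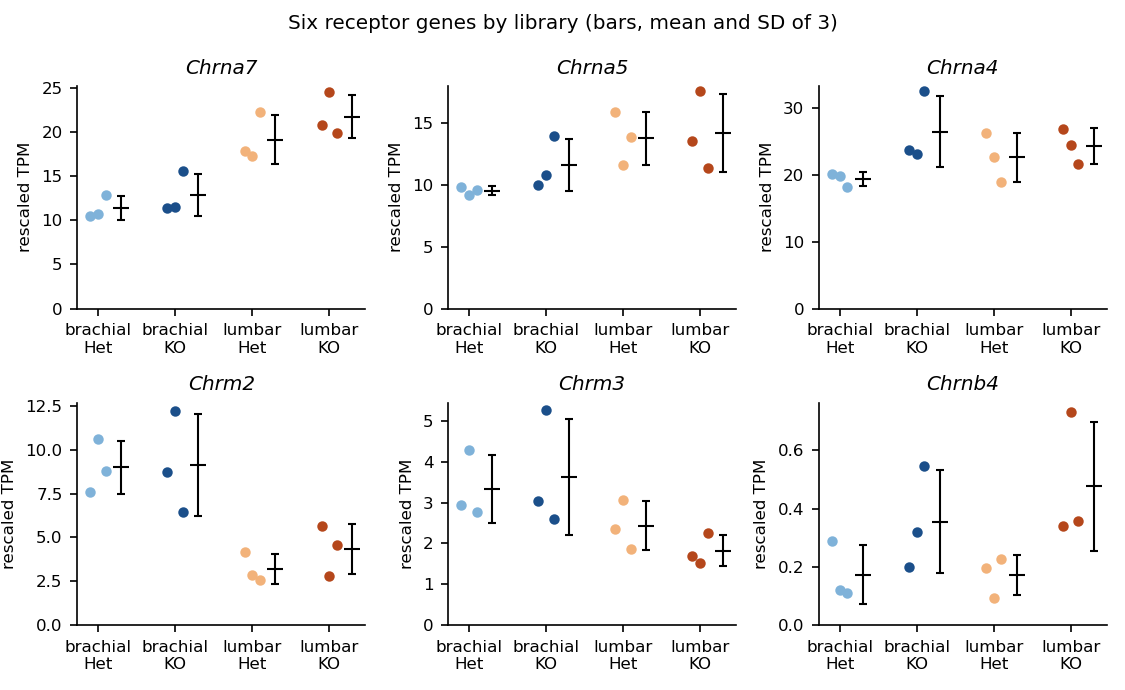
Rescaled TPM of 6 receptor genes in each library (points, 3 a group) with the group mean and SD (bars), on axes that start at 0. Lumbar points of *Chrna7* all lie above the brachial ones and those of *Chrm2* all below, brachial KO points of *Chrna4* lie at 23.1 TPM or above, and *Chrnb4* reaches at most 0.732 TPM.

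Other genes around *Isl2* were read beside the cluster. Within 1 Mb of *Isl2*, 25 other protein-coding genes began, of which 20 passed the filter, *Chrna3* and *Chrna5* among them. None of the 20 was called at either level, where 3.10% and 1.77% of all genes were, too few for a count of 0 among 20 to stand apart. The median KO difference was -0.052 in brachial and -0.026 in lumbar cord, and 9 of the 20 were positive in each. Between the cluster and *Isl2* lay 5 protein-coding genes, 4 of them tested, and the nearest to *Isl2*, *Etfa* (mitochondrial electron transfer), had differences of 0.33 and 0.092.

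**Figure D5:**
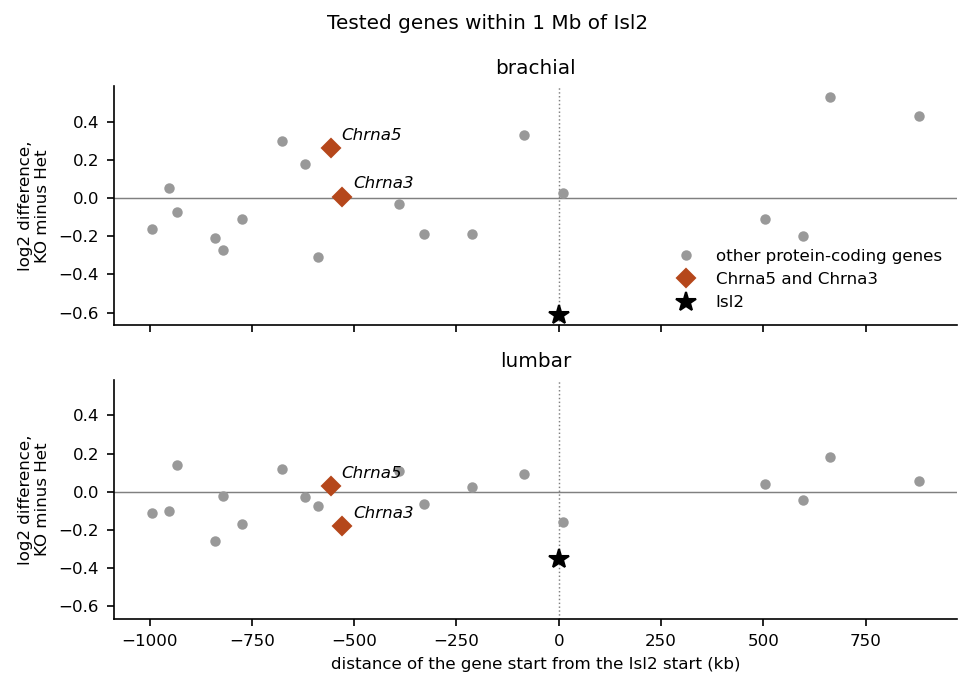
KO difference (log2) of the 20 tested protein-coding genes that begin within 1 Mb of *Isl2*, against the distance of their start from the start of *Isl2* (kb), at the brachial level above and the lumbar level below. *Chrna5* and *Chrna3* lie at 0.26 and 0.0071 in brachial and 0.029 and -0.18 in lumbar cord, among the other genes, and *Isl2* (star) lies lowest in both.

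The receptor genes outside the list were of low level. None of 9 further nicotinic genes passed the filter, and *Chrnb3*, *Chrnd* and *Chrne* were listed at 0 in all 12 libraries. The muscle genes *Chrna1* and *Chrng* reached at most 0.0622 and 0.0968 TPM. *Chrna2*, the alpha2 subunit gene, was at 0.394, 0.388 and 0.264 TPM in brachial Het and 0.327, 0.570 and 0.308 TPM in brachial KO libraries, and was listed at 0 in all 6 lumbar libraries. Of 3065 genes above 0 in every brachial library with a mean of 0.2 to 0.8 TPM there, 3 were listed at 0 in every lumbar library (0.0979%), and 9 genes of any level had that pattern. The M1 gene *Chrm1* was at most at 0.0496 TPM.

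*Chrm5*, the gene of the Gq/11-coupled M5 receptor, was at 0.507, 0.339 and 0.262 TPM in brachial Het and 0.105, 0.284 and 0.321 TPM in brachial KO libraries. In lumbar libraries it was at 0.393, 0.404 and 0.755 TPM for Het and 0.261, 0.281 and 0.228 TPM for KO. KO libraries were below Het libraries without overlap at the lumbar level, as 8.15% of genes did not overlap in either direction there without a filter, and overlapped with them at the brachial level. Fitted without a filter, the log2 difference was -0.75 at the lumbar level (95% interval -1.52 to 0.023, adjusted p 0.924 in limma) and -0.51 at the brachial level (adjusted p 0.661), neither past the threshold in this limma fit, which is not the study's count model. Over both levels it was -0.63 (-1.15 to -0.11, unadjusted p 0.0223, adjusted p 0.479), past that threshold as were 2.16% of genes, at a mean coverage of 0.325 to 1.75 reads per base.

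Of 13 genes for the assembly and modulation of receptors 11 were tested, 0 were called for genotype at either level (all genes, 3.10% and 1.77%), and 5 were lower and none higher in lumbar cord (all genes, 9.65% and 8.88%). Among these were 3 genes of the Ly6/uPAR family of receptor-binding prototoxins, *Lypd1* (-1.61, from 30 ± 3.23 to 9.77 ± 1.17 TPM), *Lypd6b* (-1.30, from 6.95 ± 1.26 to 2.78 ± 0.538 TPM) and *Lypd6* (-1.57, from 2 ± 0.372 to 0.614 ± 0.172 TPM), with adjusted p-values from 1.02e-07 to 0.000371. *Dok7*, an adaptor of the neuromuscular kinase MuSK, was lower by -0.94. The chaperone gene *Ric3*, needed for alpha7 receptors, was at 26.0 ± 1.40 TPM in brachial and 26.3 ± 1.97 TPM in lumbar libraries. The difference of *Ric3* was 0.012 and did not pass, and *Tmem35a*, which encodes another alpha7 chaperone, was at 92.1 ± 10.6 and 83.0 ± 7.33 TPM (adjusted p 0.0976).

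Of 8 genes of acetylcholine synthesis, transport and breakdown, 7 were tested, 0 were called for genotype in brachial or lumbar cord (all genes, 3.10% and 1.77%), and 3 were lower in lumbar cord, against 9.65% of all genes tested, *Slc5a7* (-1.10), the acetylcholinesterase gene *Ache* (-0.46) and its membrane anchor gene *Prima1* (-0.93). *Chat*, the synthetic enzyme gene, was at 7.59 ± 0.705 TPM in brachial and 8.68 ± 1.87 TPM in lumbar libraries. Of 14 muscarinic effector genes 12 were tested, 0 were called for genotype at either level (all genes, 3.10% and 1.77%), and 2 were lower in lumbar cord, a share (2 of 12) near that of all genes tested (18.5% called, 9.65% lower). These were *Plcb1*, the phospholipase downstream of Gq/11, from 43.1 ± 3.16 to 28.3 ± 3.87 TPM (-0.61), and *Gnai1*, a Gi subunit, from 42.9 ± 3.38 to 36.4 ± 1.95 TPM (-0.23).

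Across the 12 libraries *Chrna7* correlated with *Chrna5* at r = 0.834 and with *Chrna3* at 0.631, and with *Chrm2* at -0.869 and *Chrm3* at -0.848, while *Chrm2* correlated with *Chrm3* at 0.740. *Chrnb2* had no correlation beyond 0.619 with any member. These values, like those that follow, describe 12 points that share cord level, genotype and library, and carry no test. Among the protein-coding genes tested, the patterns nearest to *Chrna7* were those of *Mybl1* (r = 0.975) and *Phldb2* (0.971), and nearest to *Chrm2* those of *Ap1s2* (0.978) and *Nrip3* (0.959). *Chrna5* was nearest to the progenitor and motor neuron transcription factor gene *Nkx6-1* (0.958) and to *Sfrp1* (0.955). *Chrna4* was nearest to *Vangl2* (0.969) and *Mrs2* (0.961), *Chrna3* to *Kcnip2* (0.928) and the GDNF receptor gene *Ret* (0.920), and *Chrm3* to the glutamate receptor gene *Grm5* (0.949) and *Dpp10* (0.943). *Chrnb2* was nearest to *Rps6ka2* (0.900) and *Babam2* (0.881), and the 3 genes of lowest level to *Tex10* (0.932, *Chrnb4*), *Klhl26* (0.910, *Chrm4*) and *Cfap69* (0.881, *Chrnb1*).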

How the data were processed

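Bulk RNA-seq (stranded total RNA after ribosomal RNA depletion) of ventral cord was available as 12 gene tables. Per the labels and the study's methods, the authors trimmed reads with Trimmomatic 0.38, aligned them to mm10 with HISAT2 2.1.0 and Bowtie2 2.3.4.1, and quantified genes library by library with StringTie 2.1.3b. TPM is the unit the authors deposited, as StringTie wrote it. The deposited FPKM values were a constant multiple of TPM in each library and served, with the deposited coverage values (mean per-base read coverage), to compute aligned bases. The ratio of coverage to FPKM lay within 1% of a constant for 92.1% to 93.0% of single-transcript genes. Whether counting used strand is not given in the sources used here. The tables hold no counts, so limma was used in place of the study's count model. They list 45777 NCBI Gene IDs, of which 45679 had a symbol in RefSeq (GRCm38.p6), and 96.2% had the same coordinates there.

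Size factors from the median of ratios (0.893 to 1.247) were used to rescale TPM, 0.1 was added, and log2 values were fitted over all genes with a mean deposited TPM of at least 0.5 using limma 3.58.1 (lmFit, eBayes with trend) in R 4.3.3. KO was compared with Het at each level in 6 libraries and over both levels in 12, levels were compared in 12 with genotype as a term, and the difference of the KO effects was an interaction term. Genotype calls used a log2 difference beyond 0.5 in either direction and an unadjusted p under 0.05, and the other calls a Benjamini-Hochberg adjusted p under 0.05. The labels do not tie libraries to animals, and per the study's methods brachial and lumbar tissue of a genotype may come from the same few embryos. By sex, the brachial and lumbar Het libraries cannot all come from the same 3 embryos. Single values were also tested by exact permutation (two-sided). Fits were tested on simulated data. Tables were read with Python 3.11.15, pandas 2.3.3, numpy 2.4.6 and scipy 1.17.1, and plots drawn with matplotlib 3.10.9.

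All 10 members are described. The members, the other gene lists and the tests were chosen with earlier results of these data known. From each of the related lists up to 4 genes are named, those past the threshold first by p and then those of highest mean TPM, and for each member the protein-coding genes of highest Pearson r (2 at most). *Ric3*, *Tmem35a* and *Chat* are named for their roles, chosen after their values were seen, and marker genes where they passed or define the cells. The alternatives were other pseudocounts, filters, scalings and model settings, coverage in place of TPM, protein-coding genes only, a replicate block, subsets by genotype and each library left out. Embryo sex as a term, the test of *Chrnb4* alone, *Isl2*, shares and ratios from coverage, and the values of *Chrm5* were added after the data had been seen. Further marker lists, for interneurons, ganglia, autonomic neurons, endothelium, mesenchyme and microglia, are given once in the closing section.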

Additional observations from a re-analysis of the deposited data

Results flagged for a closer look

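Among 20 combinations of a member and a cord level, each with 6 libraries, 2 had a library far from the others by the size of its gap relative to the range. *Chrna5* in brachial cord had its highest value, 14.0 TPM, in KO replicate 3, the library of least depth. *Chrm4* in brachial cord had its highest value, 0.712 TPM, in Het replicate 2. About 1 in 20 groups is picked out by chance.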

How the results depend on the processing

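Depth limits what can be read for *Chrm2*, *Chrnb1*, *Chrnb4* and *Chrm4*, and with 3 libraries a group a missed threshold does not show that genotypes are alike. Counts of called members of 7 were as reported unless listed. For KO against Het, 1 member was called at the brachial level with TPM as deposited (*Chrna4*), 1 at the lumbar level with embryo sex as a term (*Chrm3*), and 1 without a filter both at the lumbar level and over both levels (*Chrnb4*). With 1 library left out these counts were 0 to 1 at each level. Between cord levels 3 members were called with TPM as deposited, with eBayes without trend and with coverage in place of TPM, 2 without a filter, 2 with the replicate block, 2 in Het libraries alone and 0 in KO libraries alone, and 2 to 5 with 1 library left out. TPM as deposited moved the median of all genes to 0.16 for KO against Het in brachial cord, to -0.13 between cord levels and to -0.17 for the interaction. It changed the split of all genes called from 377 higher and 148 lower to 1211 and 47 in brachial cord, and from 1486 higher and 1615 lower to 646 and 2214 between cord levels. The replicate block changed no other count of called members, and same-numbered libraries differed in sex in 3 of 6 pairs, so that it did not pair embryos. Other pairings were not tested.

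Small differences changed sign. For KO against Het in brachial cord, *Chrna3* was at -0.05 with quantile normalization and -0.081 to 0.058 with 1 library left out. *Chrm2* was at 0.16 with TPM as deposited, 0.0059 with coverage and -0.25 to 0.21 with 1 library left out, and *Chrm3* at -0.22 to 0.28. In lumbar cord *Chrna4* ran from -0.012 to 0.23 and *Chrna5* from -0.14 to 0.17 with 1 library left out, and *Chrnb2* from -0.14 to 0.018, with 0.01 for embryo sex as a term. Over both levels *Chrna3* was at 0.0066 with TPM as deposited, and *Chrnb2* ran from -0.026 to 0.043. Between cord levels *Chrna4* was at -0.089 with TPM as deposited, -0.11 in KO libraries alone and -0.018 to 0.14 with 1 library left out, and *Chrnb2* at 0.056 in Het libraries alone and -0.033 to 0.036. The interaction of *Chrna7* was at -0.14 with TPM as deposited and -0.074 to 0.17 with 1 library left out. The cause was not tested.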

Other observations

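Markers of other cell types were read in the same libraries, and their part in the receptor values was not tested. Between cord levels, where 8.88% of all genes tested were higher and 9.65% lower in lumbar cord, 3 of 10 ventral interneuron markers were higher and none lower in lumbar cord, 1 of 10 dorsal interneuron markers was higher and 1 lower, and 4 of 6 endothelial and 4 of 6 microglial markers were lower. Of 8 Schwann cell and crest markers 6 were tested and 2 were lower, of 8 mesenchyme and cartilage markers 4 were tested and 2 were lower, of 10 sensory ganglion markers 6 were tested and 1 was lower, and of 8 autonomic markers 5 were tested and 1 was higher. None of 8 blood markers passed. With genotype, over both levels, where 1.23% of all genes tested were called higher and 0.592% lower, 2 of 8 blood markers and 1 of 5 autonomic markers were higher in KO, 1 of 10 motor neuron markers was lower, and 0 passed among the pan-neuronal, ventral progenitor, dorsal and ventral interneuron, sensory ganglion, Schwann cell and crest, endothelium, mesenchyme and cartilage, and microglia lists.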
